A study of Mus musculus with 2 samples.

Results

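The envelope genes of the epidermal differentiation complex were compared between the tooth and the skin of newborn mice. Members were all non-control rows of the array whose gene name was Lce or Sprr followed by a digit, or Flg, Flg2, Hrnr, Rptn, Tchh, Tchhl1, Lor, Ivl or Crct1. This name rule, which used no measured value, found 41 of the 24323 named genes and 48 of the 55675 probes measured on both arrays. Total RNA from wild-type tooth and from wild-type skin, both labelled as postnatal day 0, was hybridised to 1 array each on a shared slide. The labels named no treatment for either tissue, and the study's methods gave C57BL/6J as its wild-type strain. Sex and the number of animals behind each array were not given in the sources used here. The methods of the study placed the animals 1 day later than the labels, which were followed. Since each tissue had 1 array, the spread between animals is unknown, no test was run and no difference had a replicate check.

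The epidermal differentiation complex is a gene cluster whose members are switched on as keratinocytes leave the basal layer and cornify. In the dying cell the plasma membrane is replaced by the cornified envelope, a shell of loricrin, involucrin, small proline-rich (SPRR) and late cornified envelope (LCE) proteins that transglutaminases bind to one another, while fused S100 proteins such as filaggrin bundle keratin beneath it. The enamel-forming epithelium of the tooth is also ectodermal but does not cornify.

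Each level below is the log2 of the processed spot intensity minus the 75th percentile of its array, and each difference is skin minus tooth on that scale. The lower limit of measurement was the software's call of a spot as well above background. Where 1 array missed that call, only a bound is given, as the bright signal over the lowest signal called well above background on the dim array, or over the probe's own value if that was higher. Each bound holds for the background correction of the extraction software, and another correction, given below, made many of these differences smaller than the bound. Levels of different probes were not read as relative amounts of their transcripts. The call was met by 56.7% of probes for tooth and 52.5% for skin, no spot was saturated, and the scatter among repeated spots gave a difference an SD of 0.12 (technical only). Housekeeping genes differed by -0.52 to 0.33. The tissue labels were checked on markers. Ameloblast genes (Amelx, Ambn, Enam and Amtn) passed this call in tooth and missed it in skin in 4 of 4 cases, and the suprabasal keratins Krt1, Krt10 and Krt2 were higher on the skin array by 9.93, 8.39 and 3.39 (log2).

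Most of the set was brighter in skin. Of the 41 genes, 33 were well above background in skin and 17 in tooth. In all, 15 were measured on both arrays, 18 in skin alone, 2 in tooth alone (Lce3a and Sprr3) and 6 on neither, while over all named genes 3.04% were found in skin alone and 28.4% on neither. Among the 35 genes measured on at least 1 array, 32 were at least 2-fold higher in skin (91.4%), against 14.2% of the 17409 named genes so measured. The members at least 2-fold higher in tooth numbered 2, both of them dim on the skin array, against 15.5%. The number was 1 (Lce3a) with dim values at their bound and 0 under normexp background correction. That correction adds an offset to all signals, which weighs most on faint ones. At 16-fold, 30 of the 35 were higher in skin (85.7%), against 3.04%. That number was 24 under normexp correction, 28 under spike-in scaling and 28 where the bound replaced dim values. The median difference was 9.13 over the 35 genes, 7.86 with dim values set at their bound, and 7.62 for the 15 members seen by both arrays, beside -0.04 over the 17409 named genes measured on at least 1 array. In these whole-tissue RNAs, fewer cells of a type and less RNA per cell cannot be told apart.

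**Figure D1:**
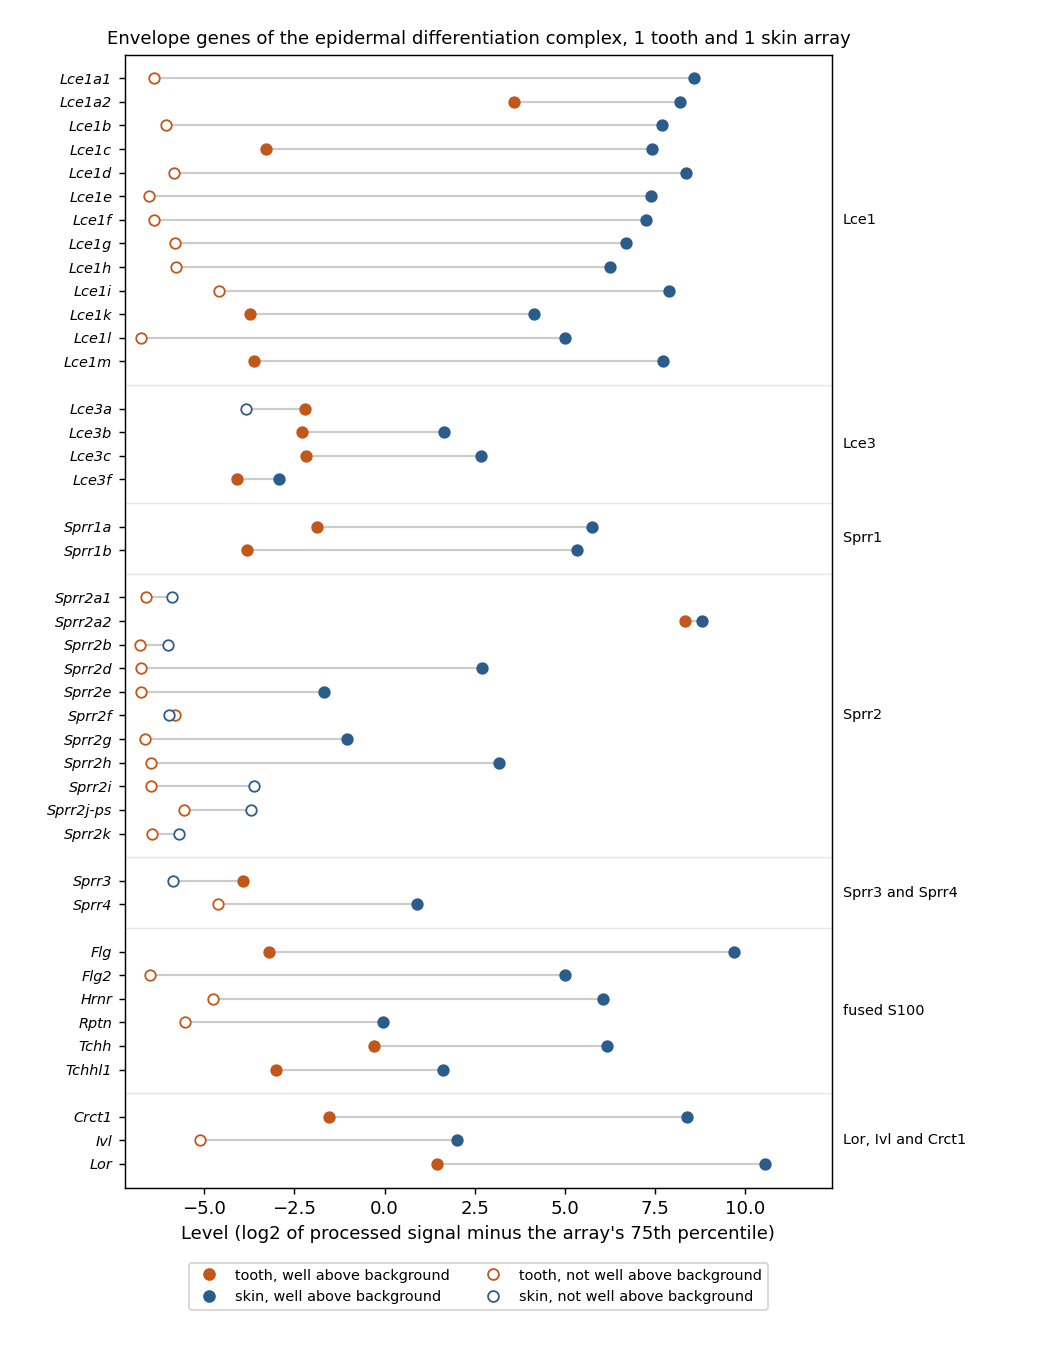
Level of each of the 41 envelope genes on the tooth array (orange) and the skin array (blue), in log2 of processed signal minus the array's 75th percentile, with filled points well above background and open points not. Each point is 1 array, so there are no error bars. Tooth points are open for 9 of the 13 Lce1 genes, while the skin points of all 13 are filled.

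Loricrin (Lor) is the bulk protein of the epidermal envelope. Its processed intensity was 1163 in tooth and 415878 in skin, or 1.44 and 10.56 as levels. Skin was thus 554-fold above tooth (9.11, log2), and Lor was well above background in both tissues. Involucrin (Ivl), which is laid down early as a scaffold for the envelope, had a signal of 12.3 in tooth and 1113 in skin. It was not well above background in tooth, which left a bound of at least 92.1-fold, and its other probe gave at least 157-fold. Under normexp correction the Ivl difference was smaller, 5.39 (log2), against 6.53 with the dim value at its bound. Crct1, which codes for a small cysteine-rich protein and lies between the Lce3 genes and Lce1m, had a signal of 148 in tooth and 92140 in skin. The difference was 967-fold (9.92, log2). Its second probe was dim in tooth and gave at least 5.59-fold. Both probes thus had the same direction, and a lower bound cannot show whether their sizes differed.

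The fused S100 genes code for long proteins with an S100 domain at the start, followed by repeats. All 6 were at least 16-fold higher in skin, with a median of 8.63 (7.98 with dim values at the bound). Under normexp correction Rptn (2.60) and Tchhl1 (3.41) fell below 16-fold, and under spike-in scaling Tchhl1 fell just below it (3.996). Profilaggrin (Flg), the keratin-binding precursor whose breakdown products hold water in the horny layer, had a signal of 46.3 in tooth and 227351 in skin. Its difference of 12.89 (7614-fold) had rank 1 toward skin among the 15271 named genes measured on both arrays. Under normexp correction the Flg difference was 11.59. Filaggrin-2 (Flg2) and hornerin (Hrnr), both related to filaggrin, were found in skin only. Flg2 had signals of 4.70 in tooth and 8843 in skin, a bound of at least 732-fold. Hrnr had signals of 15.9 and 18469, a bound of at least 1529-fold. Under normexp correction the Flg2 and Hrnr differences were smaller, 7.44 and 8.28 (log2), against 9.52 and 10.58 at the bound. Repetin (Rptn) lay much closer to the limit in skin, with signals of 9.23 and 269.6, at least 22.3-fold. Trichohyalin (Tchh) hardens the inner root sheath and medulla of the hair and was measured in both tissues. Its signal was 351 in tooth and 19690 in skin, 86.9-fold higher in skin. Its neighbour Tchhl1 had signals of 53.3 and 846, or 24.6-fold. Thus Flg, Tchh and Tchhl1 were well above background in the tooth, and Flg2, Hrnr and Rptn were not.

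The LCE genes code for short cysteine-rich and glycine-rich proteins that join the envelope late. All 13 Lce1 genes were well above background in skin and at least 16-fold higher there, except that Lce1a2 fell just short under spike-in scaling (3.98, log2). Their median difference was 12.46 (11.33 where dim values are put at the bound, 9.62 under normexp background correction). For 9 genes the tooth probe was not well above background, and their bounds ran from at least 725-fold for Lce1l to at least 8776-fold for Lce1a1. These bounds hold for the background correction of the extraction software, and under normexp correction the differences of the same pair were smaller, 7.71 and 11.04 (log2). Lce1a1 had signals of 5.15 in tooth and 105994 in skin. The other 7 of these 9 were Lce1b (at least 4696-fold), Lce1d (at least 7548-fold), Lce1e (at least 3827-fold), Lce1f (at least 3462-fold), Lce1i (at least 5367-fold), Lce1g (at least 2376-fold) and Lce1h (at least 1725-fold). Lce1b was printed on 10 spots per array, which gives a view of the technical scatter. Its 10 skin spots lay between 53865 and 61429, with an SD of 0.07 (log2), and its tooth spots lay between 4.48 and 15.2, with an SD of 0.66, 5 surrogate values and 0 of 10 well above background. The spots of the arrays did not overlap.

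The other 4 Lce1 genes were measured in both tissues. Lce1m had signals of 34.8 in tooth and 57925 in skin (2578-fold), and had rank 3 toward skin among genes measured on both arrays. Lce1c had signals of 44.2 and 47384 (1661-fold) with rank 4. Lce1k had signals of 32.5 and 4865 (232-fold). These tooth values were faint, whereas 1 probe of Lce1a2 gave a clear tooth signal. That probe had signals of 5172 in tooth and 81265 in skin, so that skin was 24.3-fold higher (4.61, log2), and the second Lce1a2 probe had 573 and 154861, or 419-fold (8.71). The first 30 bases of both probes are shown because the size of the Lce1a2 difference depends on which is read (5′ to 3′, minus strand of mm9, from the deposited files).
Lce1a2, probe at chr3:92473024-92473083: TAAGTGTCCTCCCAAGTGCCCCCCTGTGTC
Lce1a2, probe at chr3:92472592-92472651: TCTCCTGCTGCTCTCTGTGTCCTGGGCTCA
For the former the array also listed an accession of Lce1a1. The Lce1c probe with the tooth signal likewise listed Lce1e and Lce1f, while the other Lce1c probe listed Lce1c alone, was not well above background in tooth and gave at least 4174-fold.

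The Lce3 genes, the family that is known to rise in injured human epidermis, gave smaller differences. All 4 were well above background in tooth, and their median difference was 2.55. Lce3c had signals of 93.9 in tooth and 1762 in skin (4.86, 29.1-fold). Lce3b had signals of 87.7 and 867 (3.94, 15.3-fold). Lce3f had signals of 24.96 and 36.3 (1.17, 2.25-fold), and its difference was 0.55 to 0.92 under median, quantile and spike-in scaling and under normexp correction, below 2-fold. Lce3a went the other way, with 93.1 in tooth and 19.3 in skin. Its skin probe was not well above background, and the bound toward tooth was at least 2.89-fold. Under normexp correction that difference was -0.45. None of the 4 Lce3 differences reached the smallest Lce1 bound or the Lce1k difference of 7.86, but Lce3c lay beside the 4.61 of Lce1a2.

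Some of these probes are alike in sequence, so that the family members cannot be taken as separate measurements throughout. Of the 48 probes, 4 shared a run of at least 20 bases with a probe of another member, and 14 shared at least 15. Probes were compared with probes and not with transcripts, so these counts can miss probes that match another member. The array listed another member for 5 probes, and the Lce1c probe among them had no run above 8 bases. The longest runs joined Lce1h with Lce1i and Lce3b with Lce3c, and are shown in capitals within 30-base stretches of the 60-base probes (5′ to 3′, from the deposited files).
Lce1h, chr3:92567272-92567331, mm9: GTGCAGGAGGAGCACATGCTCAGAAGATTa
Lce1i, chr3:92581269-92581328, mm9: GTGCAGGAGGAGCACATGCTCAGAAGATTc
Lce3b, chr3:92737872-92737931, mm9: TCAAGAAAAGCCCAGCTAGTCTTGTTTTgt
Lce3c, chr3:92749506-92749565, mm9: TCAAGAAAAGCCCAGCTAGTCTTGTTTTat
The runs were 29 and 28 bases long. The Lce1i probe shown gave at least 2293-fold, and the other Lce1i probe, with no run of 20 bases, gave at least 5367-fold. The part of cross-hybridisation in these values was not tested.

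The SPRR proteins are proline-rich cross-bridges of the envelope. Both Sprr1 genes were measured on both arrays. Sprr1b had signals of 30.7 in tooth and 11099 in skin (9.13, 561-fold), and Sprr1a had 116 and 14744 (7.62, 197-fold). Under normexp correction the Sprr1b and Sprr1a differences were 7.22 and 6.87 (log2). The Sprr2 family was largely below the limit. Of its 11 named genes only 5 were measured on either array, with a median of 5.58 (3.46 with dim values at their bound). That median was 2.31 under normexp correction and 7.52 without probes that list another gene, which leaves out Sprr2a2. Sprr2h had signals of 4.78 in tooth and 2495 in skin, at least 207-fold. Sprr2d had signals of 3.97 and 1810, at least 150-fold. Sprr2g (at least 11.03-fold) and Sprr2e (at least 7.13-fold) were also seen in skin only. The tooth probes of all 4 were thus not well above background. Under normexp correction the differences of Sprr2h, Sprr2d, Sprr2g and Sprr2e were 5.91, 5.52, 2.31 and 1.75 (log2). At their bounds they were larger, 7.69, 7.23, 3.46 and 2.83. The 6 Sprr2 genes that neither array detected were Sprr2a1, Sprr2b, Sprr2f, Sprr2i, Sprr2j-ps and Sprr2k, with tooth signals of 3.91 to 9.10 and skin signals of 4.31 to 22.3. For Sprr2a1 this rests on its own probe. The 3 probes named Sprr2a2 also listed Sprr2a1, and 2 of them were measured, so its absence is not shown.

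Sprr2a2 stood alone among the 15 genes measured on both arrays in being within 2-fold. The brightest of its 3 probes had 136767 in tooth and 123469 in skin, which after scaling was 1.40-fold higher in skin (0.48, log2) and turned to -0.14 under spike-in scaling. A second probe was seen in skin only, with 3.78 in tooth and 714 in skin, at least 59.1-fold, and the remaining probe was dim in both tissues. The array listed accessions of both Sprr2a1 and Sprr2a2 for all 3. The bright probe shared runs of 20 to 31 bases with 6 probes that carried no Sprr name and lay on 5 chromosomes. Those 6 probes had levels of 7.87 to 8.73 in tooth and 8.39 to 9.18 in skin, with differences of 0.45 to 0.57, close to that of the Sprr2a2 probe. One of them is shown beside it, with the shared run in capitals (bases 1 to 30 of the Sprr2a2 probe and 4 to 33 of the other).
Sprr2a2, chr3:92060587-92060646, mm9: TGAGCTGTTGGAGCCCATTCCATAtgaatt
Probe with no gene name: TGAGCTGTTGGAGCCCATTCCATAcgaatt
Which transcript this probe reported was not tested. Across the 3241 named genes with exactly 2 probes measured on both arrays, probe differences lay a median of 0.26 apart, and 90% of the gaps were below 0.94. Of the 6 members with several probes, Lce1a2 alone had 2 probes measured on both arrays, and its gap was 4.10. In the other 5 at least 1 probe was dim in tooth, so the full size of any disagreement could not be measured. For Sprr2a2 the 1.40-fold of the bright probe still stood against at least 59.1-fold. For Lce1c, 1661-fold on one probe stood against at least 4174-fold on the other.

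**Figure D2:**
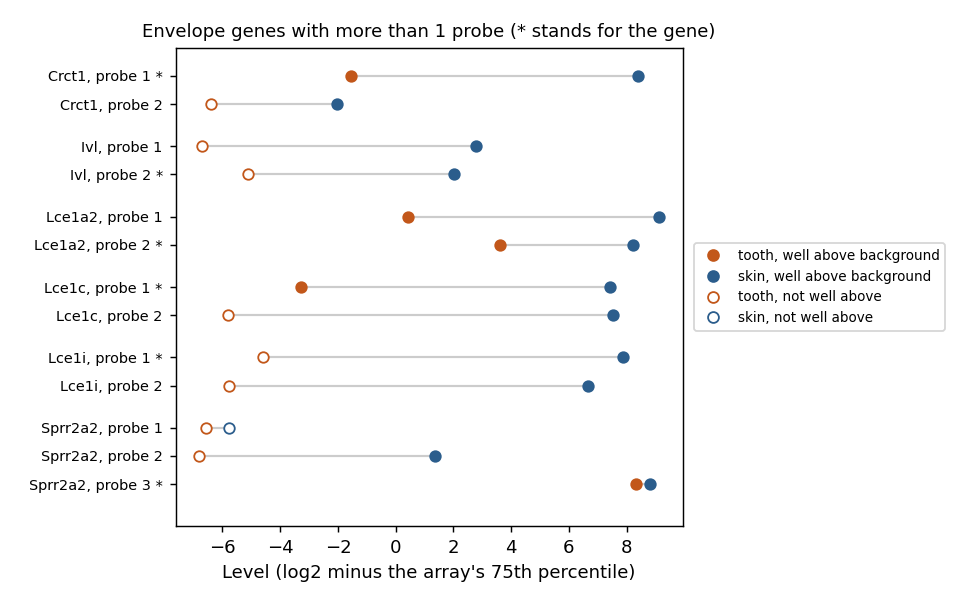
Level of every probe of the 6 envelope genes with more than 1 probe, on the tooth array (orange) and the skin array (blue), in log2 minus the array's 75th percentile. Filled points were well above background, each point is 1 array, and an asterisk marks the probe that stands for the gene. The starred Sprr2a2 probe is bright on both arrays while its other probes are open in tooth.

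Sprr3 is an SPRR gene of internal squamous linings such as the mouth and oesophagus. It was well above background in tooth only, at a signal of 28.1 against 4.75 in skin. The limit of measurement on the skin array lay above its tooth level (-3.73 against -3.93), so no fold could be given. Sprr4 was seen in skin only, with 17.6 in tooth and 517 in skin, at least 42.8-fold. Its difference under normexp correction was 3.22 (log2), against 5.42 at the bound. Among the 4 oral mucosa markers, Krt4 was seen in tooth only (at least 2.96-fold) and so was Krt76, without a fold, Krt6a differed by -0.36, and Krt13 was higher in skin by 2.36 on one probe and 0.44 on the other (log2). Tooth levels of the 4 ran from -4.16 to 3.55 and skin levels from -5.82 to 5.90. Whether tissue of the oral lining had a part in the tooth signals of Sprr3 and Lce3a was not tested.

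In chromosomal order the members spanned 1392 kb of chromosome 3 (chr3:91884206-93275887, mm9, from the probe coordinates). Lor lay at one end and the fused S100 genes at the other. The Sprr genes formed 1 stretch, with Ivl after it, then the Lce1 block, the Lce3 genes, Crct1 and Lce1m. Of the 6 genes on neither array, Sprr2a1 and Sprr2b lay before Sprr2d and Sprr2e, Sprr2f lay between Sprr2e and Sprr2g, and Sprr2i, Sprr2j-ps and Sprr2k lay after Sprr2h. The nearest members beside the Sprr2 genes were Lor (554-fold) on one side and Sprr1b (561-fold) on the other. Lor lay 143 kb from Sprr2a1, with Prr9 and Lelp1, which are not members, between them. The Lce3 genes were likewise flanked by Lce1l (at least 725-fold) and Crct1 (967-fold). Sprr3 lay between Sprr1b and Sprr1a (197-fold). In the order of the members, genes with small or unmeasured differences thus lay beside members with large ones. Where each probe lies within its transcript was not analysed here.

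**Figure D3:**
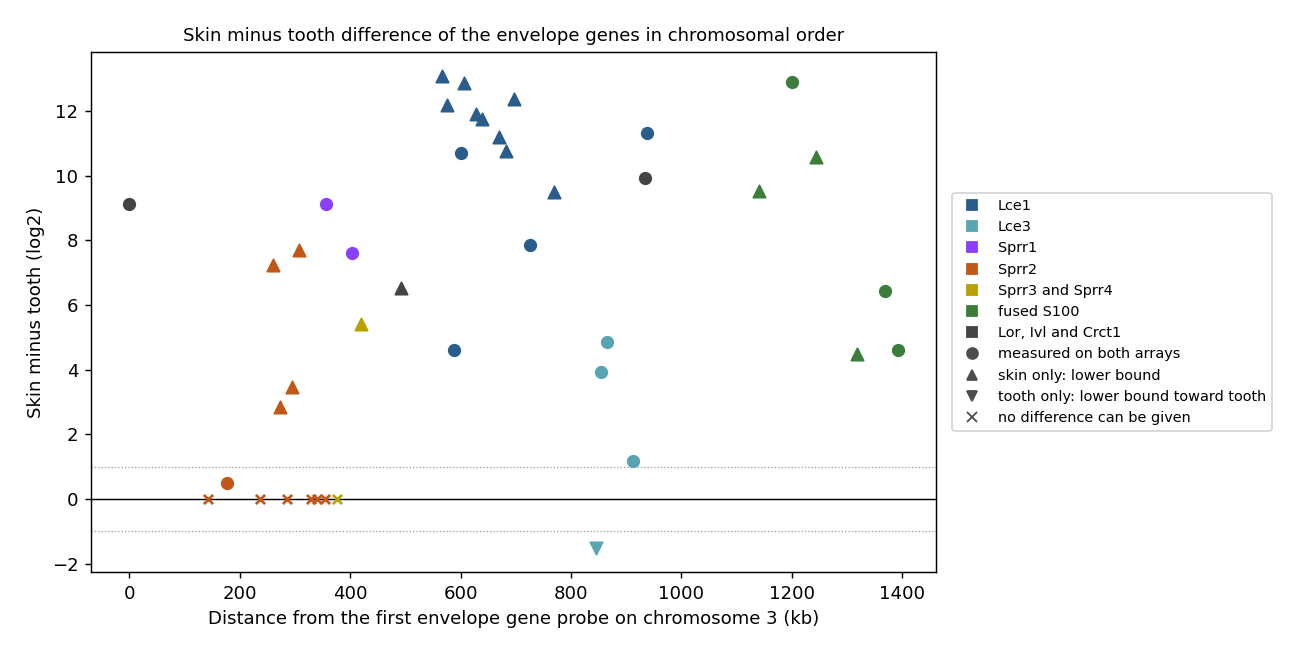
Skin minus tooth difference (log2) of the 41 envelope genes against distance from the first probe on chromosome 3 (kb), coloured by group. Circles were measured on both arrays, upward and downward triangles are lower bounds toward skin and toward tooth, and crosses on the 0 line mark the 7 genes for which no difference can be given. Dotted lines mark 2-fold. Lce1 points run from 24.3-fold (Lce1a2) to at least 8776-fold (Lce1a1), and the only downward triangle is Lce3a.

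The upstream sequences of these genes are known for control by AP-1 (Jun and Fos) and grainyhead factors, so promoters were read from RefSeq (GRCm38.p6, whose coordinates differ from mm9) for the 37 of 41 genes listed there. The window ran from 250 bases before to 50 after each start site, and both strands were searched. TATAAA was found in 17 of 37 (45.9%), against 13.6% of 32851 promoters. TGANTCA, the letters of the AP-1 site, was found in 15 of 37 (40.5%), against 7.81%. AACCGGTT, the letters of the grainyhead site, was found in 0 of 37 and in 0.146% of all promoters. At so low a share, 37 promoters cannot show whether such sites were lacking. TATAAA starting 40 to 20 bases before the start site on the gene's own strand was found in 15 of 37 (40.5%), against 1.99%. The promoters of a family descend from common copies and are not independent, so these shares are descriptions.

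The families differed in these letters. Of 9 Sprr2 promoters, 7 held TATAAA in the near window and 7 held TGANTCA. Of 12 Lce1 promoters, 2 held TATAAA there and 0 held TGANTCA anywhere in the window, and none of the 4 Lce3 promoters held either. ATAAAA, a search chosen after the sequences were seen and overlapping TATAAA by 5 letters where a further A follows, was found in the same near window in 11 of 12 Lce1 and 3 of 4 Lce3 promoters, in 22 of 37 overall (59.5%), and in 1.74% of all promoters. The 60 bases before the start site are shown for members whose values are given above (5′ to 3′ on the strand of the gene, motifs in capitals), to set the near window of each family side by side.
Lor, chr3:92083143-92083202, minus: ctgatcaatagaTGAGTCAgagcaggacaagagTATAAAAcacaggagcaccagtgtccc
Ivl, chr3:92573736-92573795, minus: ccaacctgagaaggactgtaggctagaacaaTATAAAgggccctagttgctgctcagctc
Sprr1b, chr3:92438780-92438839, minus: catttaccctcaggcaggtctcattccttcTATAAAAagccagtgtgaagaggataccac
Sprr2d, chr3:92339080-92339139, plus: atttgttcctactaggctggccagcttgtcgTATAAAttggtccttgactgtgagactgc
Sprr2h, chr3:92385625-92385684, plus: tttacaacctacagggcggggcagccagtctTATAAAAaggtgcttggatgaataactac
Sprr2a2, chr3:92250587-92250646, plus: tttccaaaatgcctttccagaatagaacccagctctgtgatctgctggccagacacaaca
Lce1b, chr3:92656927-92656986, minus: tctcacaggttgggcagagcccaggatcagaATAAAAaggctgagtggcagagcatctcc
Lce1d, chr3:92687211-92687270, minus: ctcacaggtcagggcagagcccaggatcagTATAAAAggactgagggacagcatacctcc
Lce1k, chr3:92807892-92807951, minus: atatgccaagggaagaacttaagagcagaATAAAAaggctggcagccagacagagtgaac
Lce3c, chr3:92944426-92944485, plus: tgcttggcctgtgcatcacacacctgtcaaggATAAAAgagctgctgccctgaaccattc
Lce3f, chr3:92992157-92992216, plus: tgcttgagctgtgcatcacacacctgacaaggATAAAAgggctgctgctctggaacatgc
Flg, chr3:93273486-93273545, plus: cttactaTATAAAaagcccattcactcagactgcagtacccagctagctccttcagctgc
The capitalised TATAAA of Flg lies further from the start site than the near window. The Lce3c and Lce3f stretches both held ATAAAA, and skin was 29.1-fold and 2.25-fold above tooth for these genes. Whether these letters bear on the differences was not tested.

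Other genes of the cornified envelope were mostly higher in skin too, with smaller list medians than the envelope set. Among the cross-linking enzymes, transglutaminase 1 (Tgm1) had levels of 0.51 in tooth and 2.77 in skin (4.80-fold), Tgm5 was seen in skin only (at least 168-fold), and the probes of Tgm3 disagreed, with 0.10 for the brighter and 5.62 for the other. All 13 other envelope and granule proteins on the list were past 2-fold toward skin, with a median of 5.04. They included the desmosomal linkers Ppl (6.17-fold) and Evpl (4.89-fold), corneodesmosin Cdsn (496-fold), Krtdap (195-fold) and Kprp, seen in skin only (at least 2555-fold). Envoplakin and periplakin, which tie the envelope to desmosomes and keratin, were well above background in tooth too.

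The genes of filaggrin processing, mostly proteases, followed, with 8 of 10 at least 2-fold higher in skin and a median of 4.11. The retroviral-like protease Asprv1 had levels of -1.54 in tooth and 8.56 in skin (1096-fold). Caspase-14 (Casp14) was 99.5-fold higher in skin, the kallikrein Klk5 was seen in skin only (at least 2011-fold), and its inhibitor Spink5 was 43.4-fold higher. Padi1 and the membrane protease St14 were within 2-fold (0.40 and 0.95, log2). Of 11 regulators, 9 were at least 2-fold higher in skin (8 under median or spike-in scaling), with a median of 2.31. Ovol1 (42.1-fold), Cebpa (25.4-fold) and Grhl3 (8.95-fold) were among them, Jun and Fos were 3.15-fold and 4.61-fold higher, and the stratified epithelium factor Trp63 was within 2-fold (0.16). No regulator was at least 2-fold higher in tooth.

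Of 9 other genes of the wider cluster region, 5 passed 2-fold toward skin and 2 toward tooth. The shares over measured named genes were 14.2% and 15.5%. The calgranulins S100a8 and S100a9, which are abundant in neutrophils, were 6.17-fold and 12.6-fold higher in tooth. S100a3, a hair cuticle protein, was 133-fold higher in skin. S100a10 and S100a11, which are widely expressed, were within 2-fold (0.41 and 0.40). The neighbours therefore did not all follow the envelope genes.

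Markers of suprabasal epidermis and of hair were higher in skin, as was most of the envelope set. The suprabasal keratins had a median of 8.39 over 3 genes, the inner root sheath keratins 8.91 over 4 and the hair shaft keratins 4.89 over 3, all 10 of them at least 2-fold higher in skin. The basal epithelial markers had a median of 0.80, with 2 of 6 at least 2-fold higher in skin (1 of 6 under median, quantile or spike-in scaling) and differences from 0.06 (Cdh1) to 4.56 (Krt15). Krt5 and Krt14 were well above background in both tissues, with levels of 8.82 and 6.11 in tooth and 9.76 and 7.30 in skin. Tooth markers moved the opposite way, with a median of -14.1 over 4 ameloblast genes and -7.96 over 3 odontoblast and bone genes. Fibroblast markers had a median of -2.43 over 3. The part of tissue makeup in the envelope differences was not tested.

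**Figure D4:**
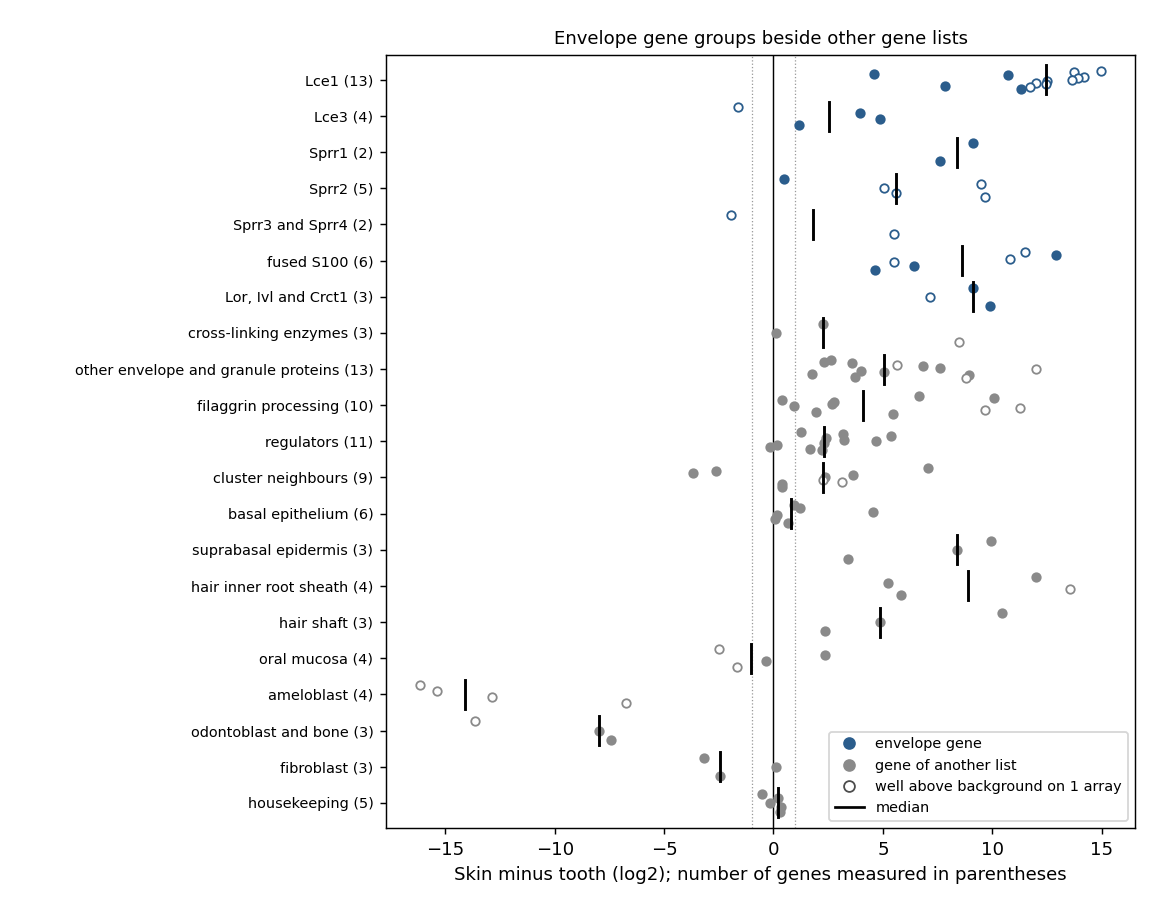
Skin minus tooth difference (log2) of the measured genes in each envelope group (blue) and in other gene lists (grey), with a black bar at the median and the number of genes in parentheses. Open points were well above background on 1 array only and are shown at their measured value. The Lce1 median of 12.46 lies above those of all other groups and lists shown, and the Lce3 median of 2.55 lies beside that of the regulators at 2.31.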

How the data were processed

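Per the labels, total RNA was column-purified and 50 ng was labelled with a single dye (Cy3). Per the file headers, the deposited spot intensities came from Agilent Feature Extraction (version 10.7.3.1), with background subtracted, within-array trends taken out and surrogates in place of very dim values. The deposited flags gave outlier, saturation and background calls. The authors also deposited a table in which each value was a ratio, the processed intensity over an array-wide factor (tooth 430.7, skin 274.5), after a percentile shift in GeneSpring.

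Outlier spots were dropped, log2 values of the deposited intensities were averaged over spots of a probe, and the 75th percentile over non-control probes (427.9 and 276.1 before log2) was subtracted per array. A probe was well above background when over 50% of its spots were so called. The probe with the highest mean level stood for a gene. Counts and medians used dim values as measured. Of 33182 named probes, 27234 matched RefSeq (GRCm38.p6), and other names are the array's. Analysis used Python 3.11.15, pandas 2.3.3 and limma 3.58.1 in R 4.3.3, and was tested on simulated data. The number of arrays limits the precision. The members, lists, thresholds and alternatives were chosen with earlier results of these data known. Every member was named, and other genes came from the lists. Alternatives were other scalings and background correction, the deposited table, probe choice and detection filters. No values of the study's own comparisons were used.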

Additional observations from a re-analysis of the deposited data

How the results depend on the processing

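No paired analysis was possible because each tissue had 1 array. The median difference of the envelope genes, 9.13, was 8.88 after median scaling, 8.99 after quantile normalization, 8.51 after spike-in scaling, 6.87 after normexp background correction, 7.62 without a filter on dim probes, 7.62 over genes well above background on both arrays, 8.49 with a lenient detection call, 7.86 with dim values at their bound and 9.30 without probes that list another gene, an alternative chosen after seeing the data. Median scaling moved the median of all genes to -0.29 and spike-in scaling to -0.67. The 32 genes at least 2-fold higher in skin became 14, and the 30 at least 16-fold higher became 12, when both arrays had to be well above background, since this leaves 15 genes. The 2 genes at least 2-fold higher in tooth became 0 there and after normexp correction, and 1 with dim values at their bound. Under that bound Sprr3 changed from -1.93 to 0.20, since the skin limit lies above its tooth level. The lenient call raised the members detected in tooth from 17 to 28. No other difference of a gene past 2-fold changed sign. The causes of the other changes were not tested. Every bound is limited by the dim array, which was the tooth array for all members with a bound except Lce3a.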

Other observations

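The stretch of chromosome 3 between the outermost member probes also held probes that the name rule did not take. Of 12 such probes with a gene name, 10 were measured and 8 of these were at least 2-fold higher in skin, with 0 in tooth. Over all measured named genes the shares were 14.2% and 15.5%. The 8 included probes of Lelp1, Kprp and Crnn, which were also on the list of other envelope and granule proteins. Prr9, a proline-rich gene next to Lor, had levels of -1.20 in tooth and 6.28 in skin and so differed by 7.48. The probe 2310050C09Rik, between Lce1l and Lce3a, was seen in skin only, at least 4811-fold higher. Lce3e, listed on the array under another name, had levels of -3.32 in tooth and -0.76 in skin. Its difference of 2.56 lay between those of Lce3f and Lce3b. The 2 probes of Tdpoz8, which is no envelope gene, differed by 0.08 and 0.26. Of 14 further probes without a gene name here, 12 were measured, of which 5 were at least 2-fold higher in skin, 1 was higher in tooth (-1.21, log2) and 6 were within 2-fold. Of 29 probes for long non-coding regions in the stretch, 5 were measured, 1 of these was at least 2-fold higher in skin and 4 were within 2-fold. For unnamed and long non-coding probes no share over the whole array was computed, so their counts are descriptions. These values were looked up after the members had been described.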
